A study of Homo sapiens with 12 samples.

Results

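The genes described here build cholesterol and fatty acids or control that synthesis: 7 enzymes of the mevalonate pathway, 11 enzymes from squalene to cholesterol, 3 regulators and 1 carrier of sterols, and 8 enzymes of fatty acid synthesis and desaturation. They were chosen as a list of symbols, with no measured value in the rule but with earlier results of these data known. The table of gene counts holds all 30 of them among 60641 symbols. All 30 passed the filter on low counts, as did 17889 genes in all. RNA was sequenced from SRA01/04, an immortalised human line labelled as lens epithelial, 24 hours into treatment. The design asked how asparagine, an amino acid, alters the state of such cells with and without 1,2-DHN (1,2-dihydroxynaphthalene), a metabolite of naphthalene. Cells given neither compound are called NC, those given asparagine NC-A, those given 1,2-DHN DHN, and those given both DHN-A, with 3 libraries in each of the 4 groups. The sources used here give neither the doses nor the order of addition. They do not say whether libraries came from separate cultures, and the p-values then cover the spread between these libraries alone, which may be technical.

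The smallest library, DHN 1, held 12381071 counts and the largest, DHN-A 1, 27526206. The biological coefficient of variation in edgeR's model, the replicate spread beyond counting noise, was 4.60%. Mitochondrially encoded transcripts took 2.73% to 3.23% of each library. On the first principal component of all tested genes (33.9% of the variance) the DHN libraries lay at 38.5 to 42.4, NC at -3.09 to 5.63 and DHN-A at -20.5 to -5.93. Within its group NC-A 1 stood apart at -65.1, against -12.5 and -10.4 for NC-A 2 and NC-A 3. Without NC-A 1 the members called numbered 11 in NC-A against NC, 1 in DHN-A against NC-A and 14 at the interaction described below, against 10, 1 and 14 with it, and in the comparisons that do not use NC-A they numbered 19 for DHN against NC and 17 for DHN-A against DHN, against 19 and 16. Of 24 lens markers, 8 were tested and 16 lay under 1 CPM (counts scaled to a common library size) in every library. The crystallin genes CRYGC and CRYGD had no count at all, and the lens fibre channel MIP had a mean of 0.0278 CPM, all chiefly genes of fibre cells. Among genes of the lens epithelium, GJA1, a connexin, had a mean of 125 CPM, the eye transcription factors PAX6 and SIX3 had 25.9 and 12.6, and FOXE3 and the crystallin gene CRYAA had 0.122 and 0.0237, so the labelled cell type was met by some of its markers and not by others.

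Cells make cholesterol from acetyl-CoA through mevalonate, isoprenoid units and squalene, and make fatty acids from the same precursor through malonyl-CoA. Both routes are switched on by the SREBP transcription factors, which SCAP carries from the endoplasmic reticulum to the Golgi for cleavage when membrane sterol is low, and which INSIG proteins hold back when it is high. SREBP-2, encoded by SREBF2, acts mainly on sterol genes, and SREBP-1 mainly on fatty acid genes. In the lens, whose fibre membranes are unusually rich in cholesterol, inherited loss of LSS is known to cause cataract.

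SREBPs bind sterol regulatory elements beside the general factors NF-Y and Sp1, so the promoters of 4 members are shown: LSS, SCD and HMGCS1 for the changes described below, and SREBF2 because the gene encodes the factor itself. Each sequence holds the 250 bases before a start site, 5′ to 3′ along the gene's strand, from RefSeq on GRCh38.p14. Capitals mark the core of the sterol regulatory element (CACNCCAC) and the NF-Y box (CCAAT), on either strand. Where a gene has several starts, the window with the most matches to these motifs or to the E-box described below is shown. For HMGCS1 the window not shown holds no NF-Y box. The windows are chr21:46228775-46229024 (minus strand) for LSS, chr22:41832855-41833104 (plus) for SREBF2, chr5:43313413-43313662 (minus) for HMGCS1 and chr10:100346983-100347232 (plus) for SCD.
LSS: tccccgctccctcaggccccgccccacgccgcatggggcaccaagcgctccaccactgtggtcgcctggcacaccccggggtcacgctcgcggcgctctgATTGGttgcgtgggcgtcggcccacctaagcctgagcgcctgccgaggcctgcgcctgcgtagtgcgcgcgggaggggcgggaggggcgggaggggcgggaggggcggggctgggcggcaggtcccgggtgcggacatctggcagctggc
SREBF2: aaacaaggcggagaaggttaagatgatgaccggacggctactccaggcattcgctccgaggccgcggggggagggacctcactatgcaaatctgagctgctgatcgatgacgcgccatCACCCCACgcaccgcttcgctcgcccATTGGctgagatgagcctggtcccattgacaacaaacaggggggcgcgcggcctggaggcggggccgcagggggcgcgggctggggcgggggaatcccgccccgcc
HMGCS1: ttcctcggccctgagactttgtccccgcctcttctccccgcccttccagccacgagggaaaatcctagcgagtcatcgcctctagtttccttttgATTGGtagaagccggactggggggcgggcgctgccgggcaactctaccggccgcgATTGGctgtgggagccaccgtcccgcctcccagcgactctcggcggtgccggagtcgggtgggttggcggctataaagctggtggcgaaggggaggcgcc
SCD: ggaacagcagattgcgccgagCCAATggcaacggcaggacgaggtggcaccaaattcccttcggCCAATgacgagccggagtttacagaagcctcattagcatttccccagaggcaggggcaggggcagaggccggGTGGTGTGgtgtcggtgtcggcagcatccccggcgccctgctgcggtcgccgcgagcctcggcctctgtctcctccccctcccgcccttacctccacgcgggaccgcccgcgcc
The element begins at position -132 from the start in SREBF2 and at -114 in SCD, and it was not found in these windows of LSS and HMGCS1, which hold NF-Y boxes; this says only that these letters are not there.

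RefSeq windows from 250 bases before to 50 after a start were matched for 26 of the 30 members, in 36 windows, because some genes have several starts. ACAT2, FASN, FDFT1 and SQLE were not matched. On both strands, the NF-Y box CCAAT lay in 69.4% of the member windows (21 members) and in 34.6% of all 35116 windows, and the Sp1 box GGGCGG in 88.9% against 45.0%. The core CACNCCAC lay in 19.4% of member windows, those of ACACA, IDI1, INSIG1, SC5D, SCD and SREBF2, and in 5.87% of all windows. The longer element TCACNCCAC, which contains that core, was found in 1 member, SREBF2 (2.78% of member windows, 1.13% of all). The E-box CACGTG, another SREBP motif, lay in 13.9% of member windows, of INSIG1, LSS, SC5D and SCAP, and in 7.26% of all. These matches describe letters in the windows, not bound sites.

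Levels between genes were compared as TPM (length-scaled transcript abundance), which divides each count by the deposited gene length before scaling the library. ACLY, which makes cytosolic acetyl-CoA from citrate, had the highest level in NC at 261.6 ± 10.5 TPM (mean ± SD, n = 3), followed by FDFT1, squalene synthase, at 228.4 ± 7.93, and the sterol dehydrogenase NSDHL at 139.8 ± 2.41. SCD, the stearoyl-CoA desaturase, came next with 113.4 ± 2.77. The lowest were TM7SF2, a sterol reductase, at 5.70 ± 0.63, and CYP51A1, the lanosterol demethylase, at 7.81 ± 1.03. CYP51A1 shares 79.4% of its exon bases with another gene on the same strand, so its level is uncertain where reads match both. Deposited lengths differ from the exon bases of GENCODE release 29 for some members, most for SC5D, the lathosterol desaturase (10054 against 5566), ACAT2 (2639 against 4299) and HMGCS1 (6627 against 4702), so their place in this order depends on the length used, while changes between groups do not. Neighbours in the order of levels could lie within their spread: LSS, lanosterol synthase, at 55.6 ± 3.95, and FDPS, farnesyl diphosphate synthase, at 58.2 ± 1.37, differed by less than the larger SD.

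**Figure D1:**
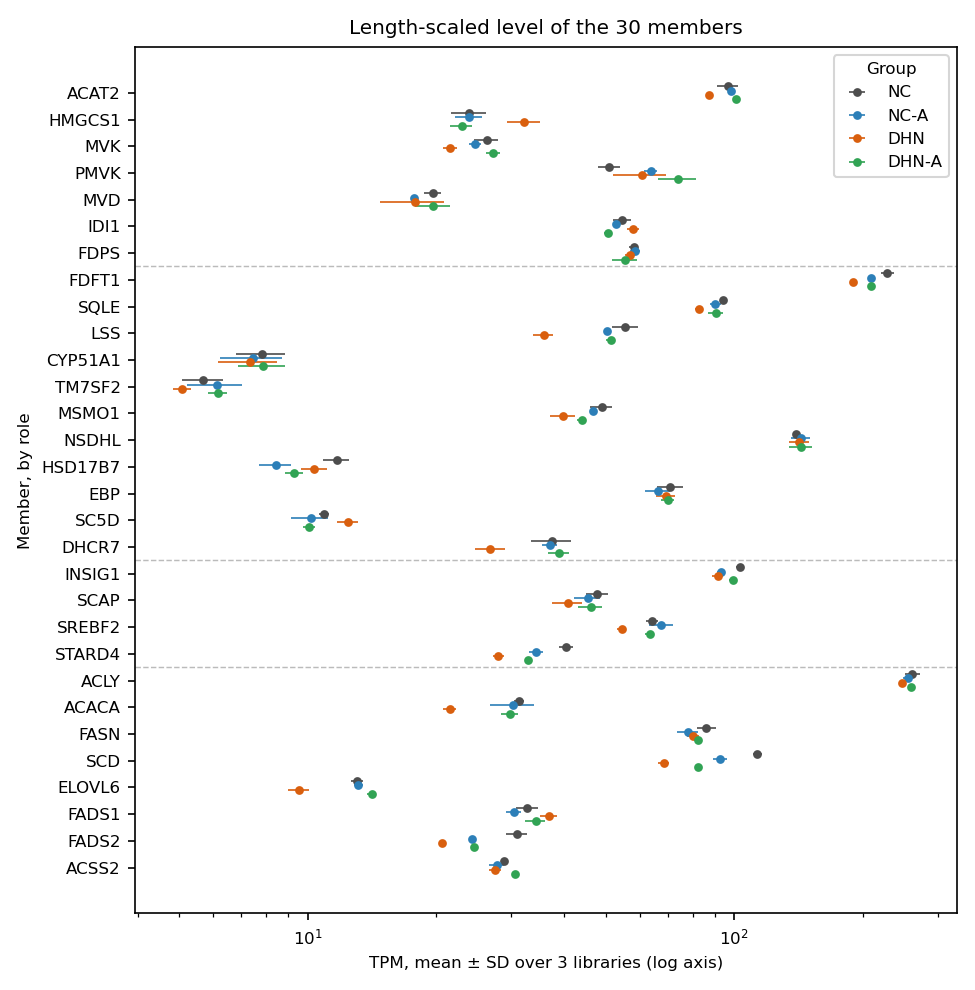
Length-scaled level (TPM, log axis) of each of the 30 members in the 4 groups, as the mean of 3 libraries with the SD as a bar, in the order of the pathway. ACLY and FDFT1 lie highest, TM7SF2 and CYP51A1 lowest, and the orange DHN points of LSS, SCD and FADS2 lie left of the other 3 groups.

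In DHN against NC, which asked what 1,2-DHN did without added asparagine, 17 members fell and 2 rose of 30, with a median log2 change of -0.19 (0.0073 over all tested genes). SCD, LSS and FADS2 fell by the largest amounts, to a level 1.69-, 1.58- and 1.52-fold lower, and these are the only members whose change reached 1.5-fold in any of the 4 comparisons between groups. HMGCS1 and FADS1 rose. Of all tested genes 38.7% were called in this comparison, 19.0% lower and 19.7% higher, by edgeR's quasi-likelihood test with a Benjamini-Hochberg adjusted p under 0.05. In bulk RNA, fewer cells with the transcript and less of it per cell cannot be told apart. Those that fell included both regulators of SREBP transport (INSIG1 and SCAP), SREBF2, the carrier STARD4, 6 of 8 fatty acid enzymes and 7 of 18 sterol enzymes.

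In DHN-A against NC-A, which asked the same of cells given asparagine and shares no library with the first comparison, 1 member fell, SCD, and 0 rose, with a median of -0.0031 (0.003 over all tested genes). Of all tested genes 2.10% were called, 1.29% lower and 0.805% higher. The 29 other members had log2 changes of -0.12 to 0.18 and 95% intervals within -0.342 and 0.375, with adjusted p from 0.166. Of all 30 members, 3 had an unadjusted p under 0.05: SCD, SREBF2 and FADS1. The call of SCD was lost when genes of low count were not filtered out (-0.17, adjusted p = 0.0611).

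The difference between those changes was tested as an interaction: the change with 1,2-DHN in asparagine-fed cells minus that in cells without it. There 13 members were higher and 1, HMGCS1, lower, with a median of 0.19 (-2e-04 over all tested genes), where 25.7% of all tested genes were called, 13.2% higher and 12.5% lower. For a gene that fell with 1,2-DHN, a positive value means that the change was less negative, or positive, in the presence of asparagine.

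With asparagine alone (NC-A against NC), 9 members fell and 1 rose, PMVK, with a median of -0.099 (0.0031 over all tested genes). Of all tested genes 20.2% were called, 10.9% lower and 9.32% higher. In DHN-A against DHN, asparagine in cells given 1,2-DHN, 12 members were higher and 4 lower, with a median of 0.11 (0.0091 over all tested genes), where 41.7% of all tested genes were called, 20.9% higher and 20.8% lower. The former comparison shares its NC libraries, and the latter its DHN libraries, with DHN against NC, so a gene's values in them are not independent of its value there. For each member they are given side by side below.

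Marker genes of other cell types differed between DHN and NC, and their part in the results was not tested. Fibroblast markers, 8 of 10 tested, 3 under 1 CPM in every library and 0 without any count, summed to 1710 to 1810 CPM in NC, 961 to 1020 in DHN, 1500 to 1520 in NC-A and 1450 to 1520 in DHN-A, and 6 fell in DHN against NC. Hepatocyte and adipocyte markers, 1 of 10 tested and 9 under 1 CPM in every library, summed to 54.4 to 61.5 CPM in NC, 36.5 to 43.4 in DHN, 64.4 to 65.3 in NC-A and 61.8 to 63.7 in DHN-A, and the 1 tested fell in DHN against NC. Both lists were lowest in DHN. Immune cell markers, 4 of 10 tested and 7 under 1 CPM in every library, went the other way, with 6.42 to 6.86 CPM in NC, 8.72 to 10.3 in DHN, 6.06 to 6.26 in NC-A and 7.3 to 9.01 in DHN-A, and 1 rose in DHN against NC. Keratinocyte markers, 3 of 10 tested, 7 under 1 CPM in every library and 1 of these without any count (LOR), summed to 47 to 51.9 CPM in NC, 54.4 to 58.8 in DHN, 50.1 to 56.2 in NC-A and 50.5 to 57.3 in DHN-A, and 1 rose in that comparison. In these 4 lists the DHN and NC libraries did not overlap. Sums of pigment cell markers (9.04 to 11.8 CPM in NC, 9.76 to 11 in DHN) and lens markers (178 to 189 in NC, 171 to 183 in DHN) overlapped, although 1 pigment cell marker rose and 3 lens markers rose and 1 fell, the largest rise being 3.87 on the log2 scale for CRYAB, the alpha B-crystallin.

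**Figure D2:**
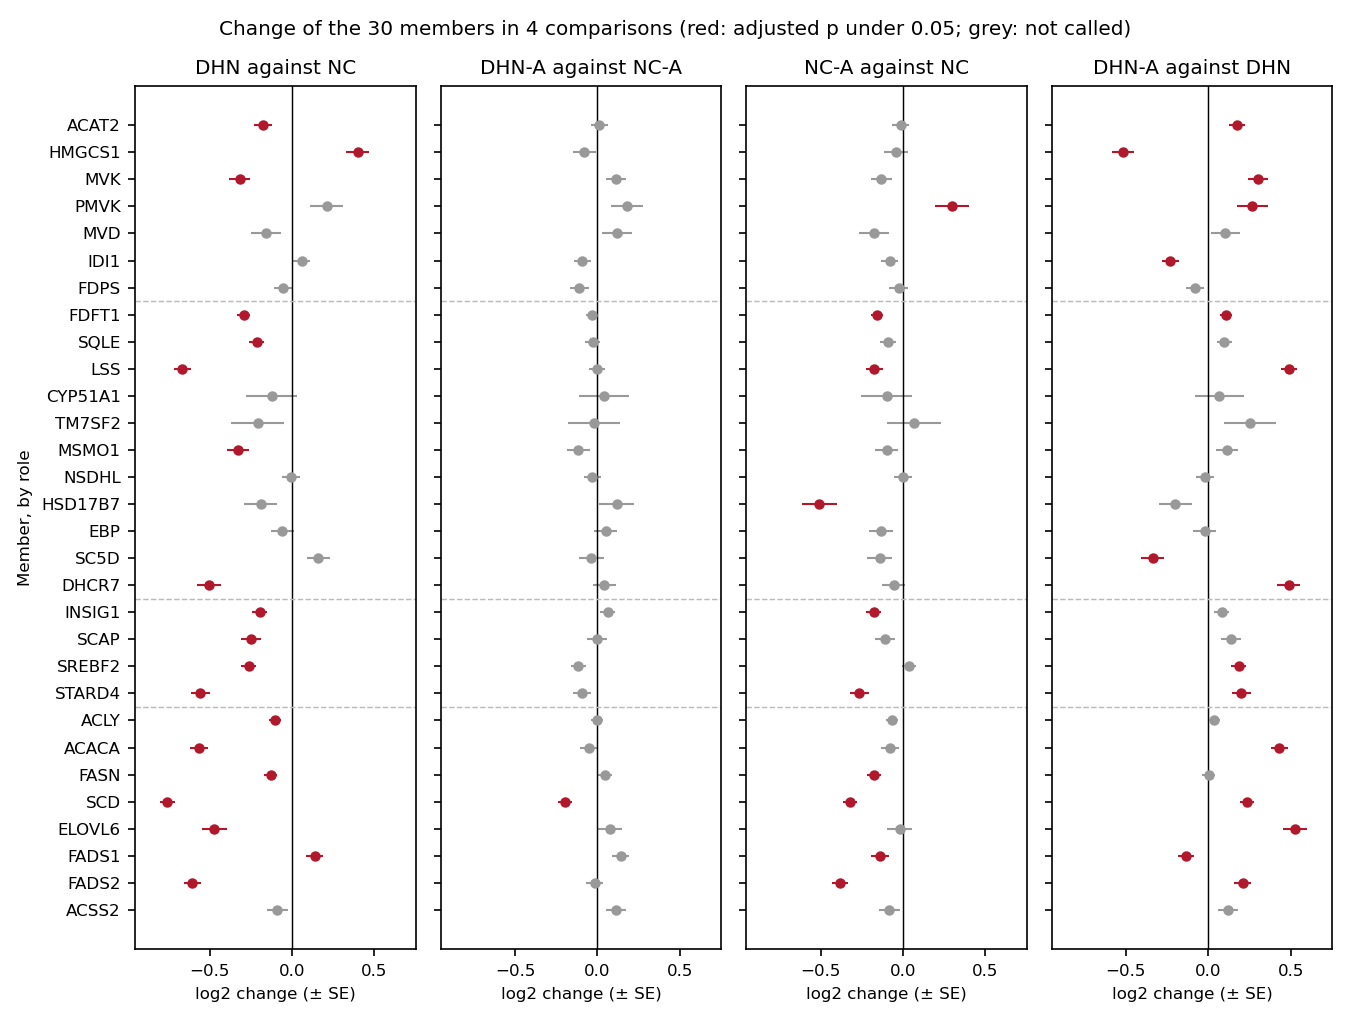
Change of each of the 30 members (log2, with the SE as a bar) in the 4 comparisons between groups, red where the adjusted p is under 0.05 and grey where it is not. Most red points lie left of 0 in DHN against NC, and SCD is the 1 red point in DHN-A against NC-A.

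Of the 7 mevalonate enzymes, 2 fell and 1 rose in DHN against NC, and 3 rose and 2 fell in DHN-A against DHN. In those comparisons 38.7% and 41.7% of all tested genes were called. HMGCS1 (chromosome 5, 43289395 to 43313512, minus strand) condenses acetoacetyl-CoA, the product of ACAT2, to HMG-CoA. It stood at 38.5, 44.1 and 37.4 CPM in NC, 53.8, 57.1 and 47.7 in DHN, 41.7, 38.2 and 37.0 in NC-A, and 39.2, 34.6 and 36.6 in DHN-A. Every DHN library lay above the other 9, which overlapped. The log2 change was 0.40 ± 0.069 (± SE, as for all log2 changes) in DHN against NC (edgeR adjusted p = 9.14e-06), -0.52 ± 0.068 in DHN-A against DHN (adjusted p = 5.08e-08) and -0.48 ± 0.10 at the interaction (adjusted p = 0.000277). It had the larger rise of the 2 members that rose with 1,2-DHN.

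MVK (chromosome 12, 109573255 to 109598117, plus strand), mevalonate kinase, stood at 39.8, 45.1 and 44.3 CPM in NC, 35.6, 35.4 and 33.1 in DHN, 39.5, 40.7 and 38.2 in NC-A, and 44.2, 40.9 and 43.0 in DHN-A. Its DHN libraries lay below all others, and the NC, NC-A and DHN-A libraries overlapped. MVK fell in DHN against NC (-0.32 ± 0.063, adjusted p = 5.2e-05), rose in DHN-A against DHN (0.30 ± 0.062) and had an interaction of 0.43 ± 0.089 (adjusted p = 0.000171). ACAT2 (chromosome 6, 159760328 to 159779055, plus strand), the cytosolic thiolase that supplies acetoacetyl-CoA, was also lowest in DHN, at 60.7, 68.1 and 64.5 CPM in NC, 57.3, 56.5 and 57.6 in DHN, 62.9, 63.9 and 65.0 in NC-A, and 64.5, 64.9 and 64.0 in DHN-A. The 3 DHN libraries were the lowest of the 12. It changed by -0.18 ± 0.052 with 1,2-DHN alone and by 0.17 ± 0.051 in DHN-A against DHN, the former lost without NC 2 (-0.14, adjusted p = 0.0507), and the interaction was not called (adjusted p = 0.0524). In GENCODE release 29, 52.3% of the exon bases of ACAT2 lie opposite exons of other genes, including SOD2 and TCP1, and no source used here gives the strand setting of the counting.

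PMVK (chromosome 1, 154924734 to 154936991, minus strand), phosphomevalonate kinase, was the 1 member that rose with asparagine alone, at 13.6, 13.0 and 12.1 CPM in NC, 17.6, 14.4 and 13.2 in DHN, 15.2, 15.6 and 16.5 in NC-A, and 16.3, 19.8 and 17.6 in DHN-A. Its NC libraries were below those of NC-A and DHN-A, and the DHN libraries overlapped with both sides. PMVK rose in NC-A against NC (0.30 ± 0.10, adjusted p = 0.0333) and in DHN-A against DHN (0.27 ± 0.096, adjusted p = 0.0216), while DHN against NC gave 0.21 ± 0.10 without a call. The first call was lost with DESeq2 (adjusted p = 0.0931), with no filter on low counts (0.0882) and without NC 2 (0.0618), NC 3 (0.142), NC-A 2 (0.0723) or NC-A 3 (0.138), and the second call with DESeq2 (0.0919) and without DHN 2 (0.0932), DHN 3 (0.215) or DHN-A 2 (0.171). IDI1, the isomerase of isoprenoid units, ran from 52.9 to 63.3 CPM and was lowest in the 3 DHN-A libraries (at most 53.9). It fell in DHN-A against DHN (-0.23 ± 0.051, adjusted p = 0.000235) and was called nowhere else. MVD, the diphosphomevalonate decarboxylase, and FDPS, which joins the units to farnesyl diphosphate, were called in no comparison.

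Of the 11 enzymes from squalene to cholesterol, 5 fell and 0 rose in DHN against NC, 3 fell in NC-A against NC, and 3 rose and 1 fell in DHN-A against DHN. The shares of all tested genes called there were 38.7%, 20.2% and 41.7%. LSS (chromosome 21, 46188141 to 46228824, minus strand) closes the sterol rings by turning squalene epoxide into lanosterol. Its level was 104, 92.9 and 107 CPM in NC, 66.7, 60.1 and 65.7 in DHN, 88.7, 89.3 and 91.7 in NC-A, and 88.2, 91.9 and 89.5 in DHN-A. The DHN libraries lay far below the rest, and the NC libraries just above those of NC-A and DHN-A, which overlapped. LSS fell in DHN against NC (-0.66 ± 0.051, adjusted p = 5.49e-15), fell less in NC-A against NC (-0.17 ± 0.051, adjusted p = 0.0103) and rose in DHN-A against DHN (0.49 ± 0.051, adjusted p = 5.24e-11). Its interaction was the largest of the 30 members (0.66 ± 0.072, adjusted p = 4.63e-10). The call in NC-A against NC was lost without NC 3 (-0.13, adjusted p = 0.113).

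DHCR7 (chromosome 11, 71428193 to 71452868, minus strand) reduces 7-dehydrocholesterol to cholesterol, the last step. The 12 libraries gave 34.4, 42.0 and 41.5 CPM in NC, 25.3, 28.6 and 29.1 in DHN, 36.7, 40.1 and 37.2 in NC-A, and 37.0, 41.1 and 39.1 in DHN-A. As in LSS, DHN stood alone at the low end, but here the 3 other groups overlapped fully. Its changes were -0.50 ± 0.073 in DHN against NC (adjusted p = 1.61e-07), 0.49 ± 0.071 in DHN-A against DHN (adjusted p = 2.11e-07) and 0.54 ± 0.10 at the interaction, with no call for asparagine alone (adjusted p = 0.641).

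FDFT1 (chromosome 8, 11795573 to 11839309, plus strand), which commits farnesyl diphosphate to squalene, had the highest count of the sterol enzymes, at 289, 309 and 300.4 CPM in NC, 246, 245 and 242 in DHN, 263, 275 and 269 in NC-A, and 266, 261 and 262 in DHN-A. NC libraries were above all others, DHN libraries below all others, and NC-A and DHN-A overlapped between them. FDFT1 fell with either compound alone, by 0.29 with 1,2-DHN (1.23-fold, adjusted p = 8.34e-09) and by 0.16 with asparagine (1.11-fold, adjusted p = 0.00179) on the log2 scale. The rise in DHN-A against DHN was 0.11 ± 0.037, lost without DHN 1 (adjusted p = 0.0516), DHN 2 (0.0622), DHN 3 (0.0684) or DHN-A 1 (0.0702). The interaction of 0.26 ± 0.053 was kept in all 16 alternatives without a minimum fold change. SQLE (chromosome 8, 124998497 to 125022283, plus strand), the squalene epoxidase that follows, stood at 102, 103 and 102 CPM in NC, 86.4, 88.7 and 89.1 in DHN, 92.2, 96.4 and 99.3 in NC-A, and 95.05, 98.2 and 89.2 in DHN-A. All 3 NC libraries lay above the rest. SQLE fell in DHN against NC (-0.21 ± 0.046, adjusted p = 0.000164), DHN-A against DHN gave 0.10 ± 0.045 without a call, and the interaction of 0.19 ± 0.065 (adjusted p = 0.0289) was lost without NC-A 1 (adjusted p = 0.0908), DHN 1 (0.0803), DHN 2 (0.0572), DHN-A 1 (0.06) or DHN-A 2 (0.117).

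MSMO1, the C4-methylsterol oxidase, ran from 25.9 to 29.6 CPM in DHN and from 33.1 to 36.7 in NC, and fell in that comparison (-0.33 ± 0.068, adjusted p = 0.000111). DHN-A against DHN gave 0.11 ± 0.068 without a call. HSD17B7, which reduces a sterol 3-ketone, fell with asparagine alone, from 13.1 to 15.04 CPM in NC to 9.30 to 10.7 in NC-A (-0.51 ± 0.11, adjusted p = 0.00035), the largest change of any member in that comparison. It gave -0.19 ± 0.10 with 1,2-DHN alone and -0.20 ± 0.10 in DHN-A against DHN, neither called, and a pseudogene of like name had counts equal to 26.6% of its own, so its level is uncertain where reads match both. SC5D was highest in DHN, at 29.8 to 33.0 CPM against 22.9 to 28.5 in the 9 other libraries. It fell in DHN-A against DHN (-0.34 ± 0.071, adjusted p = 0.000121), with 0.16 ± 0.072 in DHN against NC just short of a call (adjusted p = 0.0752).

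Called in no comparison were CYP51A1, TM7SF2, NSDHL and EBP, a sterol isomerase. NSDHL varied between 65.8 and 74.6 CPM over the 12 libraries and EBP between 27.6 and 33.9. CYP51A1 (5.48 to 7.98 CPM) and TM7SF2 (4.18 to 5.86) were the members with the fewest counts, and their 95% intervals in DHN against NC were wide, from -0.429 to 0.181 and from -0.536 to 0.119. The exons of CYP51A1 share 79.4% of their bases with another gene on the same strand, and 3 pseudogenes of like name had counts equal to 17.6% of its own.

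**Figure D3:**
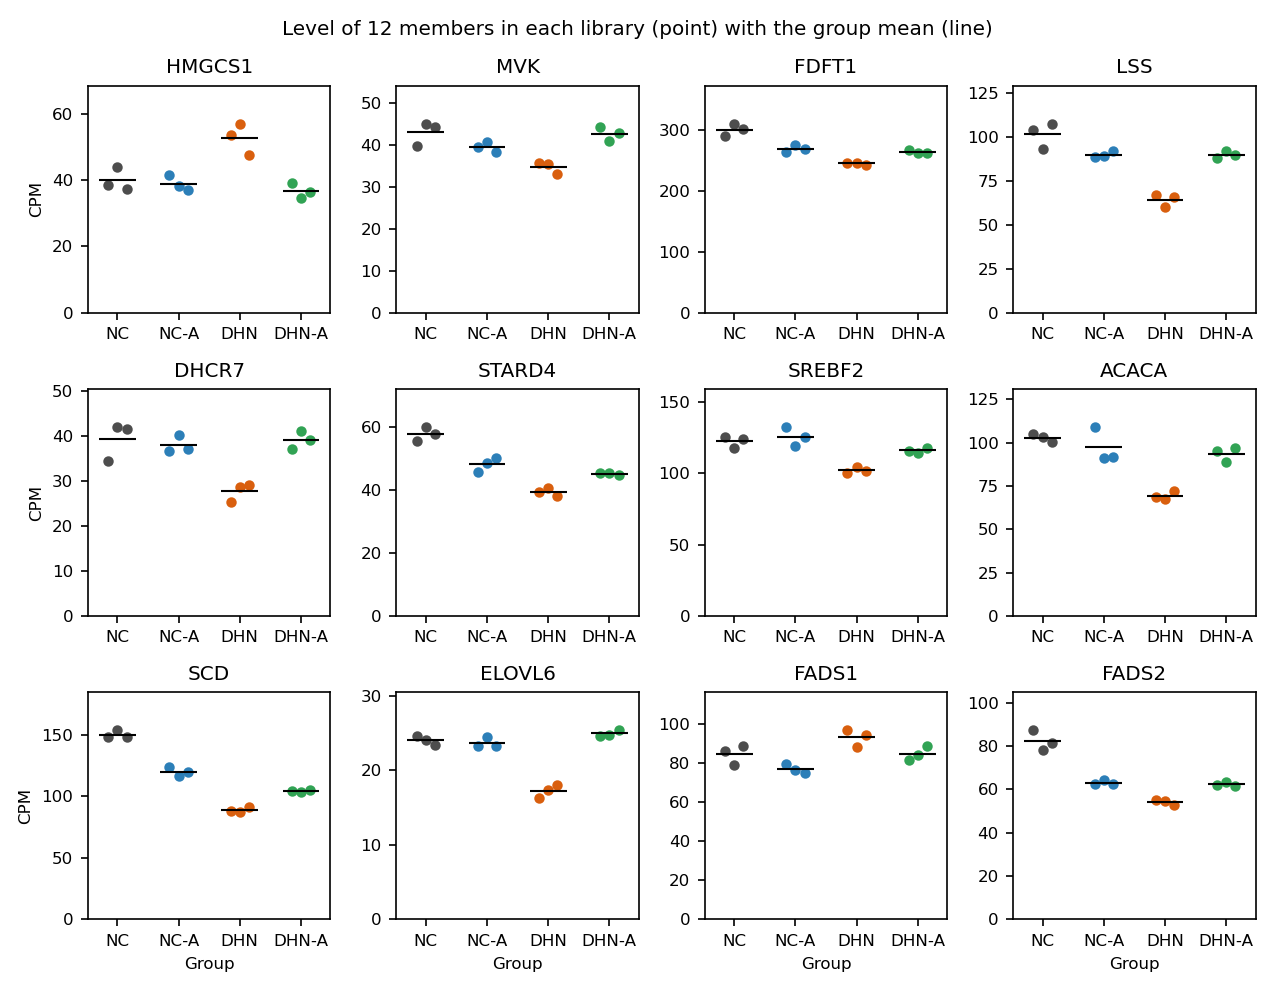
Level in CPM of 12 members in each of the 12 libraries (points) with the group mean (line), by group, with each axis starting at 0. In LSS, DHCR7, SREBF2, ACACA, SCD, ELOVL6 and FADS2 the DHN points lie lowest, in HMGCS1 they lie highest, and the 4 groups of SCD do not overlap.

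All 4 regulators and carriers fell in DHN against NC, where 19.0% of all tested genes fell. SREBF2 (chromosome 22, 41833079 to 41907308, plus strand), whose promoter is shown above, stood at 126, 118 and 124 CPM in NC, 100.2, 104 and 102 in DHN, 132, 119 and 125 in NC-A, and 116, 114 and 118 in DHN-A. The DHN libraries were the lowest, and those of DHN-A came next, overlapping with NC. SREBF2 fell in DHN against NC (-0.26 ± 0.045, adjusted p = 4.17e-06) and rose in DHN-A against DHN (0.18 ± 0.044, adjusted p = 0.000682). Its value with asparagine alone was 0.04 ± 0.045 without a call, and without NC-A 1 that value was -0.0011. The interaction was not called (0.15 ± 0.063, adjusted p = 0.0827).

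STARD4 (chromosome 5, 111496033 to 111512590, minus strand), a cytosolic carrier that moves cholesterol between membranes, stood at 55.6, 60.1 and 58.0 CPM in NC, 39.5, 40.6 and 38.2 in DHN, 45.8, 48.7 and 50.3 in NC-A, and 45.5, 45.4 and 44.9 in DHN-A. The 4 groups did not overlap, with NC at the top, then NC-A, DHN-A and DHN, although DHN-A against NC-A was not called (adjusted p = 0.526). With 1,2-DHN alone STARD4 fell (-0.56 ± 0.057, adjusted p = 3.18e-11), as it did in NC-A against NC (-0.26 ± 0.057, adjusted p = 0.000527), and rose in DHN-A against DHN (0.20 ± 0.057, adjusted p = 0.00385). Its interaction was 0.46 ± 0.081 (adjusted p = 1.33e-05).

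INSIG1 (chromosome 7, 155297776 to 155310235, plus strand), the sterol sensor that holds SCAP in the endoplasmic reticulum, stood at 96.5, 93.7 and 94.2 CPM in NC, 81.0, 82.3 and 84.8 in DHN, 81.3, 86.4 and 83.7 in NC-A, and 88.2, 86.0 and 88.6 in DHN-A. NC libraries were above all others, and those of NC-A and DHN overlapped. It fell with either compound alone, with -0.19 ± 0.045 for 1,2-DHN and -0.18 ± 0.046 for asparagine (adjusted p = 0.000449 and 0.00391), and its interaction was 0.26 ± 0.064 (adjusted p = 0.0017). DHN-A against DHN gave 0.08 ± 0.045 without a call. SCAP (chromosome 3, 47413694 to 47477126, minus strand), the escort of SREBP, stood at 76.5, 70.7 and 80.1 CPM in NC, 59.6, 61.9 and 69.0 in DHN, 73.6, 72.3 and 65.3 in NC-A, and 67.8, 75.5 and 67.1 in DHN-A. DHN was below NC in every library, and NC-A and DHN-A overlapped with both. SCAP fell in DHN against NC (-0.25 ± 0.060, adjusted p = 0.000882), and DHN-A against DHN gave 0.14 ± 0.059 without a call. Its interaction of 0.25 ± 0.085 (adjusted p = 0.0272) was lost without NC 1 (adjusted p = 0.053), NC 3 (0.0931), NC-A 3 (0.107), DHN 1 (0.0958), DHN 2 (0.0898) or DHN-A 2 (0.109).

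Among the 8 fatty acid enzymes, 6 fell and 1 rose in DHN against NC, 4 fell in NC-A against NC, and 4 rose and 1 fell in DHN-A against DHN. The shares of all tested genes called there were 38.7%, 20.2% and 41.7%. SCD (chromosome 10, 100347124 to 100364834, plus strand) introduces the double bond that turns stearoyl-CoA into oleoyl-CoA. It stood at 148, 154 and 148 CPM in NC, 87.7, 87.4 and 91.4 in DHN, 123, 117 and 119.6 in NC-A, and 105, 103 and 105 in DHN-A. The 4 groups did not overlap, with NC highest, then NC-A, DHN-A and DHN. SCD had the largest fall of the 30 members with 1,2-DHN (-0.76 ± 0.043, adjusted p = 1.39e-19) and also fell with asparagine alone (-0.32 ± 0.042, adjusted p = 1.01e-07). It rose in DHN-A against DHN (0.23 ± 0.043, adjusted p = 1.67e-05) and was still lower in DHN-A against NC-A (-0.20 ± 0.043, adjusted p = 0.00408), with an interaction of 0.56 ± 0.060 (adjusted p = 4.98e-10).

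FADS2 (chromosome 11, 61792980 to 61867354, plus strand), the delta-6 desaturase of polyunsaturated fatty acids, stood at 87.4, 78.5 and 81.5 CPM in NC, 55.0, 54.7 and 52.8 in DHN, 62.6, 64.5 and 62.5 in NC-A, and 62.2, 63.6 and 61.7 in DHN-A. NC lay above and DHN below the other groups, and NC-A and DHN-A overlapped. FADS2 fell in DHN against NC (-0.61 ± 0.051, adjusted p = 8.76e-14) and in NC-A against NC (-0.38 ± 0.051, adjusted p = 1.65e-07), and rose in DHN-A against DHN (0.21 ± 0.051, adjusted p = 0.000784). Its interaction was 0.59 ± 0.072 (adjusted p = 1.01e-08). FADS1 (chromosome 11, 61799625 to 61829318, minus strand), the delta-5 desaturase and its neighbour on the opposite strand, did not share this course, at 86.1, 78.8 and 88.8 CPM in NC, 96.8, 88.2 and 94.5 in DHN, 79.3, 76.3 and 74.9 in NC-A, and 81.4, 83.9 and 88.8 in DHN-A. The DHN libraries were the highest except that DHN 2 lay just below the top library of NC and of DHN-A, and NC-A had the lowest mean. FADS1 rose in DHN against NC (0.14 ± 0.050, adjusted p = 0.0258) and fell in NC-A against NC (-0.14 ± 0.052, adjusted p = 0.0495) and in DHN-A against DHN (-0.14 ± 0.049, adjusted p = 0.0237). The pair overlaps at 4.79% of the exon bases of FADS1.

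All 3 calls of FADS1 were close to the threshold. That in DHN against NC was lost with DESeq2 (adjusted p = 0.0759), with no filter on low counts (0.116) and without NC 2 (0.222), DHN 1 (0.109) or DHN 3 (0.0733). That in DHN-A against DHN was lost with DESeq2 (0.0513), with no filter (0.123) and without DHN 1 (0.0984), DHN 3 (0.0653), DHN-A 1 (0.146) or DHN-A 2 (0.0596). That in NC-A against NC was lost in 11 of the 17 alternatives without a minimum fold change. Among them were the fits without NC 1 (0.119), NC 3 (0.255), NC-A 2 (0.119), NC-A 3 (0.172), DHN 1 (0.0562), DHN 2 (0.052), DHN-A 1 (0.0543) or DHN-A 2 (0.0546).

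ACACA (chromosome 17, 37084988 to 37406818, minus strand), acetyl-CoA carboxylase, makes malonyl-CoA in the committed step. Its level was 105, 104 and 100.2 CPM in NC, 68.8, 67.5 and 72.2 in DHN, 109, 91.3 and 91.9 in NC-A, and 95.4, 89.1 and 96.7 in DHN-A. Only the DHN libraries stood apart, below all others. ACACA fell in DHN against NC (-0.56 ± 0.054, adjusted p = 1.18e-11), rose in DHN-A against DHN (0.43 ± 0.053, adjusted p = 8.44e-09), was not called for asparagine alone (adjusted p = 0.32) and had an interaction of 0.51 ± 0.075. ELOVL6 (chromosome 4, 110045846 to 110199199, minus strand), which elongates palmitate to stearate, followed the same course, at 24.6, 24.1 and 23.4 CPM in NC, 16.3, 17.4 and 18.03 in DHN, 23.3, 24.5 and 23.3 in NC-A, and 24.7, 24.8 and 25.4 in DHN-A. Its changes were -0.47 ± 0.077 in DHN against NC, 0.53 ± 0.075 in DHN-A against DHN and 0.55 ± 0.11 at the interaction (adjusted p = 1.86e-06, 1.16e-07 and 8.09e-05), with no call for asparagine alone (adjusted p = 0.888).

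FASN (chromosome 17, 82078333 to 82098332, minus strand), the synthase that builds palmitate, stood at 214, 194 and 199 CPM in NC, 188, 178 and 189 in DHN, 188, 176 and 174 in NC-A, and 185, 189.6 and 181 in DHN-A. NC libraries were above the rest, and the 3 treated groups overlapped. FASN fell in NC-A against NC (-0.18 ± 0.043, adjusted p = 0.00197), and its fall in DHN against NC (-0.13 ± 0.042, adjusted p = 0.0112) was lost without NC 1 (adjusted p = 0.105) or DHN 2 (0.118). The interaction of 0.18 ± 0.060 was lost without NC 1 (0.0862), NC-A 2 (0.0576), NC-A 3 (0.0715), DHN 2 (0.111) or DHN-A 2 (0.0739). ACLY, the most abundant member, ran from 317 to 357 CPM and fell in DHN against NC by 0.10 on the log2 scale (adjusted p = 0.0221), a call lost without NC 1 (0.139), DHN 1 (0.089) or DHN 2 (0.103). ACSS2, which makes acetyl-CoA from acetate, ran from 33.9 to 39.4 CPM and was called in no comparison.

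Sterol and fatty acid enzymes were then compared as classes, by the mean log2 CPM of the 18 sterol enzymes and of the 8 fatty acid enzymes in each library. The fatty acid mean was 6.58 ± 0.0343 in NC (SD, n = 3), 6.25 ± 0.0279 in DHN, 6.42 ± 0.0259 in NC-A and 6.43 ± 0.00751 in DHN-A. The sterol mean was 5.20 ± 0.0352, 5.06 ± 0.0266, 5.11 ± 0.0221 and 5.12 ± 0.0275 in the same order. Both classes were thus lowest in DHN, and the class of 8 fatty acid enzymes moved further. The lists of other pathway genes, given below, did not share this order in DHN against NC. The gap of fatty acid over sterol enzymes was 1.38 ± 0.0658 in NC, 1.19 ± 0.0131 in DHN, 1.30 ± 0.0383 in NC-A and 1.31 ± 0.0335 in DHN-A. Every DHN library (1.18 to 1.199) had a narrower gap than every other library (1.26 to 1.45). These means are not scaled by gene length, so only the change of the gap between groups has a meaning.

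From NC to DHN the fatty acid mean changed by -0.32 and the sterol mean by -0.14, so the gap changed by -0.19, beside a pooled SD of 0.0421 between replicates. With asparagine alone it changed by -0.0746, but by -0.037 without NC 1. In asparagine-fed cells the gap differed by 0.0057 between DHN-A and NC-A, less than that SD, and this value turned to -0.016 without NC-A 3 and to -0.012 without DHN-A 3. From DHN to DHN-A the gap widened by 0.12. Median log2 changes in DHN against NC were -0.30 for the fatty acid and -0.17 for the sterol enzymes. In NC-A against NC they were -0.11 and -0.094, and in DHN-A against DHN 0.16 and 0.10. The classes overlapped member by member: in DHN against NC the fatty acid enzymes ran from -0.76 (SCD) to 0.14 (FADS1), and the sterol enzymes from -0.66 (LSS) to 0.40 (HMGCS1). No p-value is given for the class difference, because the members were chosen with earlier results of these data known.

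**Figure D4:**
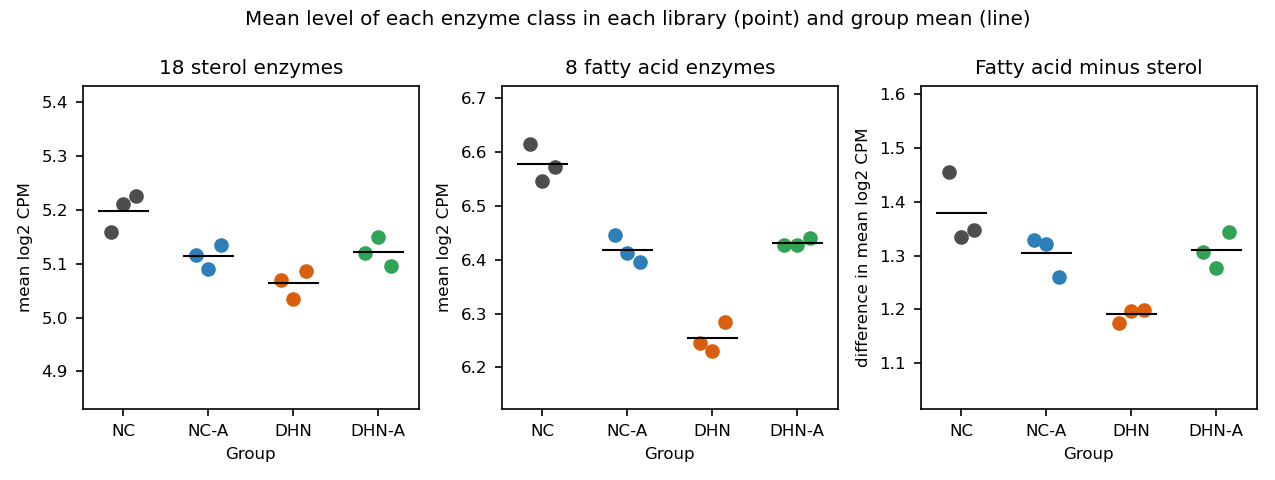
Mean log2 CPM of the 18 sterol enzymes (left) and the 8 fatty acid enzymes (middle), and their difference (right), in each library (points) with the group mean (line), by group; the axes do not start at 0. The DHN libraries lie lowest in all 3 panels, with a difference of 1.18 to 1.199 against 1.26 to 1.45 elsewhere.

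Other genes of the same pathways were counted in the same fit. Of 18 other sterol genes, 16 were tested. In DHN against NC 10 fell and 1 rose (38.7% of all tested genes were called), and in NC-A against NC 3 fell and 2 rose (20.2%). In DHN-A against DHN 7 rose and 1 fell (41.7%). In DHN-A against NC-A 0 were called (3 at an unadjusted p under 0.05), beside 2.10% of all tested genes. INSIG2, the other INSIG protein, fell from 22.2 ± 1.55 to 13.4 ± 0.871 CPM in DHN against NC (-0.74 ± 0.088) and also fell in NC-A against NC (-0.33 ± 0.086). NPC1, which exports cholesterol from lysosomes, fell in DHN against NC (-0.44 ± 0.039) and rose in DHN-A against DHN (0.44 ± 0.039). ERLIN2, a membrane protein of the pathway that degrades sterol-regulated proteins, rose with asparagine in both settings, by 0.39 ± 0.045 in NC-A against NC and by 0.65 ± 0.045 in cells given 1,2-DHN, and fell by 0.35 with 1,2-DHN alone. Named here after their values were seen are DHDDS, of dolichol synthesis, which was the 1 such gene that rose in DHN against NC (0.15), and SOAT1, which esterifies cholesterol and was the 1 that fell in DHN-A against DHN (-0.14).

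Of 26 other fatty acid genes, 23 were tested. In DHN against NC 6 fell and 4 rose (38.7% of all tested genes were called), and in NC-A against NC 6 fell and 5 rose (20.2%). In DHN-A against DHN 8 rose and 6 fell (41.7%), and in DHN-A against NC-A 1 rose and 1 fell (2.10%). The median of these 23 genes in DHN against NC was -0.0269, beside -0.30 for the 8 fatty acid members. For the 16 other sterol genes it was -0.2068, beside -0.17 for the 18 sterol enzymes. Among these other genes the sterol list thus fell further, so the order of the classes depends on the genes listed. In DHN-A against NC-A, ACACB, the mitochondrial acetyl-CoA carboxylase, was the 1 that rose (0.33) and HSD17B12, a reductase of chain elongation, the 1 that fell (-0.30), both named after their values were seen. Among the genes with the largest changes, ELOVL4, an elongase of very long chains, rose from 27.2 ± 3.84 to 36.0 ± 1.97 CPM in DHN against NC (0.42 ± 0.078) and fell in NC-A against NC (-0.43 ± 0.086) and in DHN-A against DHN (-0.89 ± 0.079). ME1, the malic enzyme that supplies NADPH for lipid synthesis, rose with 1,2-DHN (0.24 ± 0.051) and fell with asparagine, both without and with 1,2-DHN (-0.40 ± 0.054 and -0.58 ± 0.051). ACSL1, which activates fatty acids with coenzyme A, rose with 1,2-DHN (0.46 ± 0.072) and fell in DHN-A against DHN (-0.53 ± 0.0705). These 3 went opposite to the majority of the called genes of their list, of which 6 of 10 fell with 1,2-DHN. ACSL5, another such activating enzyme, was not called with 1,2-DHN (adjusted p = 0.96) and rose with asparagine in NC-A against NC (0.51 ± 0.12) and in DHN-A against DHN (0.33 ± 0.11).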

How the data were processed

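The members and lists were chosen with earlier results of these data known. The deposited table gives, per symbol, a gene length (unit not stated, taken as bases) and raw counts for 12 libraries; the authors' counts are whole and not normalized. Stranded libraries were made, per the labels' protocols, and hg38 and Bowtie are named, without versions, per the submitters' processing notes; no source used here gives the counting tool, its strand setting or the annotation. Genes passing filterByExpr (17889) were fitted with edgeR 4.0.16 (R 4.3.3): TMM factors, a robust quasi-likelihood model with 1 mean per group over all 12 libraries, and Benjamini-Hochberg adjustment over all tested genes at 0.05. CPM uses the scaled library sizes, log2 CPM a prior count of 2, and TPM was computed from counts and deposited lengths. Per-library values are given for members called in 2 or more of the 5 comparisons or at the interaction, and of each list of other pathway genes at most 4 called genes with the largest changes, of which 3 of the sterol and 4 of the fatty acid list are shown. Coordinates are from GENCODE release 29 (GRCh38), matched by symbol. Motifs were counted on both strands of RefSeq promoter windows. The procedure was tested on simulated data. The alternatives were DESeq2 1.42.0, its size factors within edgeR, no filter on low counts, a fit of only the groups compared, a replicate block, a minimum change of 1.5-fold, each library left out in turn and, for the class means, a prior count of 0.5.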

Additional observations from a re-analysis of the deposited data

Results flagged for a closer look

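The change with 1,2-DHN differed by the presence of asparagine in 14 of the 30 members, by the test of the interaction itself in edgeR's quasi-likelihood model. The same test called 25.7% of all tested genes, 13.2% higher and 12.5% lower. The values below are log2 changes with 1,2-DHN in cells given asparagine minus those in cells without it, so a positive value stands for a less negative or a positive change in the presence of asparagine.

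Among sterol enzymes the difference was 0.66 for LSS, 0.54 for DHCR7, 0.43 for MVK, 0.26 for FDFT1 and 0.19 for SQLE, and -0.48 for HMGCS1, the 1 member with a negative value among those called. Among regulators and carriers it was 0.46 for STARD4, 0.26 for INSIG1 and 0.25 for SCAP. Among fatty acid enzymes it was 0.59 for FADS2, 0.56 for SCD, 0.55 for ELOVL6, 0.51 for ACACA and 0.18 for FASN. The differences for SQLE, SCAP and FASN each depended on several single libraries, named with them above. FDFT1, LSS, INSIG1, STARD4, FASN, SCD and FADS2 (7 members) fell with asparagine alone as well as with 1,2-DHN alone. Their positive values therefore also contain the lower level in NC-A, and need not mean a rise in DHN-A against DHN. For FASN, NC-A against NC gave -0.18 and DHN-A against DHN 0.001.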

How the results depend on the processing

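The 60 called values of members were followed over 1006 alternatives, which leave out the minimum change of 1.5-fold. Of these, 946 kept the call, 60 lost it and 0 reversed it, and 46 values were called in all of them. With a minimum change of 1.5-fold, 3 members were called in DHN against NC (0 higher, 3 lower), 0 in NC-A against NC (0 and 0), 0 in DHN-A against DHN (0 and 0), 0 in DHN-A against NC-A (0 lower) and 2 at the interaction (2 higher, 0 lower). The share of all tested genes called at that minimum is not given here, so these counts cannot be set against a background. With no filter on low counts, and likewise with DESeq2, 1 member was higher in DHN against NC and 0 in NC-A against NC. With no filter 0 members were called in DHN-A against NC-A, where SCD had an adjusted p of 0.0611. The cause was not tested. With each library left out in turn, the members higher numbered 1 to 2 in DHN against NC and 0 to 1 in NC-A against NC. The uncalled value of SREBF2 in NC-A against NC turned to -0.0011 without NC-A 1, and ran from -0.0011 to 0.0691 over the libraries left out. With the replicate number as a block, 19, 9, 16, 1 and 14 members were called in DHN against NC, NC-A against NC, DHN-A against DHN, DHN-A against NC-A and at the interaction. The block ended 1 call, that of FADS1 in NC-A against NC (-0.14, adjusted p = 0.0501). Over 18 same-numbered pairs the median correlation of deviations was 0 (range -0.176 to 0.229). Over 36 pairs of different number it was -0.001 (-0.267 to 0.291). No pairing by number was seen, but with 3 libraries per group these values cannot exclude a paired design. The change of the gap between fatty acid and sterol enzymes kept its direction in every alternative run for DHN against NC, NC-A against NC, DHN-A against DHN and the interaction; for DHN-A against NC-A it turned from 0.0057 to -0.016 without NC-A 3 and to -0.012 without DHN-A 3. Low counts limit TM7SF2 and CYP51A1 most, and CYP51A1 also has the exon overlap and pseudogenes given above.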
